A study of Mus musculus with 30 samples.

Results

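MicroRNA (miRNA) levels were compared between hearts of vehicle mice killed 28 days and 1 day after instillation. The members were the 4 samples whose source name gave control heart tissue of day 28 and the 4 whose source name gave that of day 1, 8 of the 30 samples of the series. All were female C57BL/6 mice, acquired at 5 to 6 weeks of age and killed 1 or 28 days after a single intratracheal instillation. Each received 40 µl of 0.9% NaCl in water with 10% (by volume) cell-free lavage fluid from C57BL/6 mice, followed by 150 µl of air and without particles (0 µg). The section of heart taken held both ventricles, and each array carried RNA of 1 mouse, labelled in 1 colour. The remaining groups were 6 vehicle mice of day 3 and mice given 162 µg of Printex 90, a carbon black nanoparticle, in the same liquid (6 on day 1, 5 on day 3, 5 on day 28). Since all mice arrived at 5 to 6 weeks, mice of day 28 can also be older than mice of day 1, and age and time since instillation cannot be told apart. There were no uninstilled mice in the groups used here.

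A miRNA is a short RNA that guides a silencing complex to messenger RNAs, mainly by pairing of its seed, bases 2 to 8 counted from the 5′ end. The hairpin precursor gives a guide strand and a passenger strand, and the array names mark the passenger strand with an asterisk. In the heart, a few miRNAs lie in introns of myosin heavy chain genes: miR-208a in Myh6, the alpha chain of the adult mouse ventricle, miR-208b in Myh7, the beta chain of the fetal ventricle, and miR-499 in Myh7b. The miR-29 family is known for targeting messengers of collagens and other extracellular matrix proteins and is abundant in cardiac fibroblasts.

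The sequences below are those of the miRNAs on which the comparison turned, with close relatives, so that shared seeds can be seen. They were read by name from RefSeq (GRCm38.p6), are written 5′ to 3′, and the capitals mark the seed.
miR-29a: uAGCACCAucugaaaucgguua
miR-29b: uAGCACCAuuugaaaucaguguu
miR-29c: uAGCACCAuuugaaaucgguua
miR-29c*: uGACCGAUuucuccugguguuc
miR-31: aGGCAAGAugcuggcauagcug
miR-208b: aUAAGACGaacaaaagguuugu
miR-208a-3p: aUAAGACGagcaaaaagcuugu
miR-499: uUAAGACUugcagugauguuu

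The 3 guide strands of the miR-29 family share the seed AGCACCA. From miR-29a to miR-29c there is 1 substitution, C10U, with positions counted from the 5′ end, and from miR-29c to miR-29b there are 3 (G18A, U21G and A22U) besides 1 more base at the 3′ end. The hairpins lie in pairs. Mir29a (chr6:31062660-31062747, minus strand) and Mir29b-1 (chr6:31063023-31063093, minus strand) are 275 bases apart, with no other RefSeq gene over them. Mir29b-2 (chr1:195037040-195037120, plus strand) and Mir29c (chr1:195037547-195037634, plus strand) are 426 bases apart within the span of the long noncoding RNA gene A330023F24Rik. The mature miR-29b of both pairs is identical, so the array cannot tell its 2 sources apart. The seed of miR-208b, UAAGACG, is that of miR-208a-3p, from which it differs by 3 substitutions outside the seed (G10A, A16G and C18U), and the seed of miR-499 differs from it by G8U. Mir208b (chr14:54975700-54975776, minus strand) lies within the spans of Myh7 and of the long noncoding RNA gene Gm31251. Mir208a (chr14:54949060-54949142, minus strand) lies within Myh6, and Mir499 (chr2:155622880-155622958, plus strand) within Myh7b. Mir31 (chr4:88910557-88910662, minus strand) lies within the long noncoding RNA gene Gm49890.

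All 8 arrays were measured on the same design of 1079 mouse miRNAs, of which 285 to 333 were detected per array, and 306 miRNAs passed the filter on dim probes. A probe was detected where at least 0.5 of its spots stood well above background, and values are log2 of the scaled signal, raised to a floor of 4.04 where lower. The share of spots well above background was 25.7% ± 1.34 on day 1 and 24.5% ± 1.81 on day 28 (SD, n = 4 each), and the groups did not differ past the threshold (exact two-sided permutation test, p = 0.314; 0.419 adjusted over 4 array measures). The smallest p that 4 against 4 allows is 0.0286. The miRNAs that mark heart muscle were bright, with miR-1a at 15.97 ± 0.15 on day 1 and 16.00 ± 0.09 on day 28. None of the 8 names of the pancreas list or the 18 of the epithelium and cilia list passed the filter. The liver miRNA miR-122 varied between arrays of both groups: 6.30, 6.29, 6.31 and 4.47 on day 1 and 7.17, 6.39, 4.04 and 6.14 on day 28. It is the 1 marker of the liver list that passed the filter, and its part in other results was not tested.

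Between the groups, 6 miRNAs of 306 (1.96%) passed an adjusted p of 0.05 (limma with Benjamini-Hochberg adjustment over 306 miRNAs, here and below). In the hearts of day 28, 5 were higher (1.63%): miR-31, miR-29b, the guide strand miR-29c with its passenger strand miR-29c*, and miR-29a. The other, miR-208b, was lower (0.327%). At an unadjusted p under 0.05 there were 16 (5.23%). The median difference over all 306 was -0.05 (log2), with 131 (42.8%) higher and 175 (57.2%) lower by value. Fold changes here are on the scaled log2 scale, which compresses differences near the floor.

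**Figure D1:**
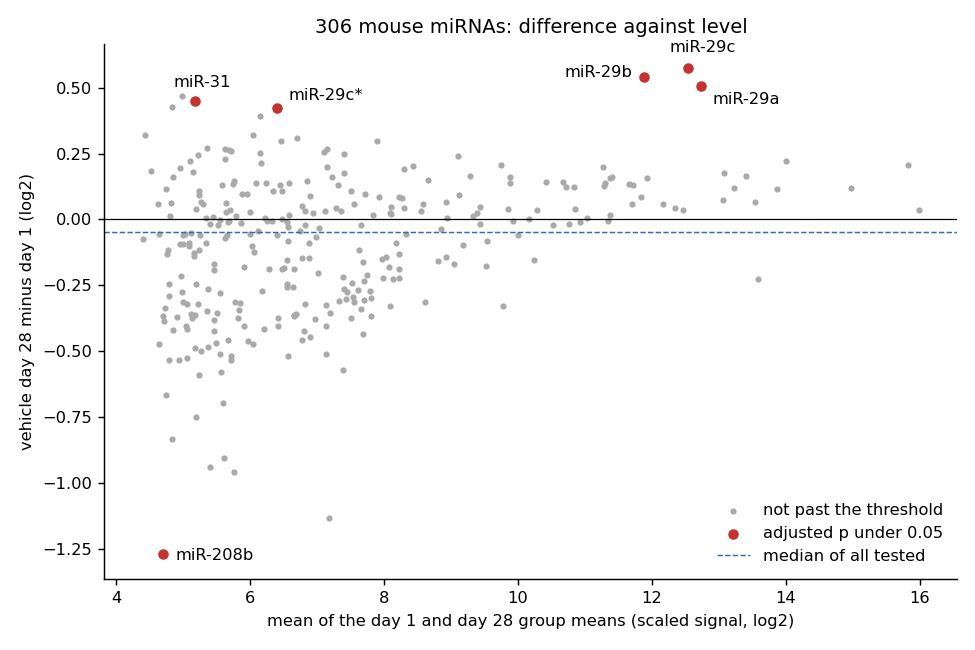
Difference between vehicle day 28 and vehicle day 1 (log2, vertical) against the mean of the 2 group means (scaled signal, log2, horizontal) for 306 mouse miRNAs. The 6 red points passed an adjusted p of 0.05; miR-29a, miR-29b and miR-29c lie among the brighter miRNAs and miR-31 and miR-208b among the dimmer ones.

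miR-208b was measured at 5.37, 5.5, 5.15 and 5.31 on the 4 arrays of day 1 and at 4.12, 4.04, 4.04 and 4.04 on those of day 28, where 4.04 is the floor. It was detected on 4 of 4 arrays of day 1 and on 0 of 4 of day 28, so the groups did not overlap and the level on day 28 is known only as a bound: it was not well above background on any of the 4 arrays. The fitted difference was -1.27 ± 0.17 (SE; 95% interval -1.63 to -0.92; adjusted p = 3.08e-05). Because the dimmer group holds no detected signal, the fold is given as a bound. In the main setting, and with no interval, miR-208b was at least 1.77-fold lower on day 28. This sets the mean of day 1 (5.34) against a mean of 4.51 made of each array's lowest detected signal. Both probes of miR-208b were detected on 4 of 4 arrays of day 1 and on 0 of 4 of day 28. On the 6 vehicle arrays of day 3 the level lay between 4.77 and 5.48, with a median of 5.16. Those values lay above every day 28 array and within or below the range of day 1. In the main setting, the difference of day 28 from day 3 was at least 1.54-fold (adjusted p = 0.000128), and that of day 3 from day 1 was -0.20 ± 0.16 (adjusted p = 0.509).

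The size of the miR-208b difference depended on how the low signals were treated, and the direction did not. Under normexp background correction with an offset of 50 it was -0.28 (adjusted p = 0.902), and in the series value table -0.42 (adjusted p = 0.0139). Both are smaller in size than the bound of the main setting, which is 0.82 in log2. From the software's summed gene signal the difference was -2.69 (adjusted p = 0.000216). Without any scaling between arrays it was -1.24 (adjusted p = 0.083). Within slides, which also equal scan times, it was -1.27, -1.26 and -1.46 on the 3 slides that hold arrays of both groups.

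The other myosin intron miRNAs did not pass. miR-499, the Myh7b miRNA, was measured at 11.16, 11.10, 11.24 and 11.19 on day 1 and at 11.43, 11.37, 11.28 and 11.40 on day 28. The groups did not overlap, yet its difference of 0.20 ± 0.16 (95% interval -0.13 to 0.53; adjusted p = 0.755) missed the threshold. The SD over arrays was 0.06 on day 1 and 0.07 on day 28, and 0.21 in vehicle hearts of day 3 and 0.35 in Printex 90 hearts of day 1, which share the fitted spread. miR-208a-3p, the Myh6 miRNA, gave means of 8.89 ± 0.22 and 8.96 ± 0.12 (SD, n = 4 each) and a difference of 0.07 ± 0.12 (95% interval -0.19 to 0.32). Of the wider muscle and cardiomyocyte list, 9 of 13 names passed the filter, 6 higher and 3 lower by value, with a median of 0.03 and miR-208b as the single member past the threshold. miR-1a and miR-133a, which mark heart and skeletal muscle, differed by 0.03 ± 0.08 and 0.11 ± 0.11 (SE), with intervals of -0.13 to 0.20 and -0.11 to 0.34.

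The miR-29 family carried 4 of the 6 calls. Of 7 names on the array, 5 passed the filter, and all 5 were higher on day 28 by value, with a median of 0.51 against -0.05 over all 306. Their mean levels and those of miR-29a* stand for different probes and are not set against each other.

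miR-29b was measured at 11.82, 11.57, 11.58 and 11.50 on day 1 and at 12.22, 11.99, 12.20 and 12.22 on day 28. The lowest array of day 28 lay above the highest of day 1. The difference was 0.54 ± 0.10 (95% interval 0.34 to 0.74; adjusted p = 0.0012), a 1.46-fold rise.

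miR-29c was measured at 12.34, 12.10, 12.27 and 12.29 on day 1 and at 12.74, 12.65, 12.78 and 13.12 on day 28, again without overlap, with replicate 4 of day 28 the highest. It differed by 0.57 ± 0.11 (95% interval 0.34 to 0.81; adjusted p = 0.00311), a 1.49-fold rise. Its passenger strand miR-29c* was measured at 6.25, 6.03, 6.27 and 6.24 on day 1 and at 6.58, 6.46, 6.58 and 6.86 on day 28, and differed by 0.42 ± 0.09 (adjusted p = 0.00771). That call was lost without replicate 2 of day 1 (0.37; adjusted p = 0.0536) and without replicate 4 of day 28 (0.34; adjusted p = 0.0699).

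miR-29a was measured at 12.59, 12.41, 12.46 and 12.48 on day 1 and at 12.94, 12.82, 12.95 and 13.27 on day 28, and differed by 0.51 ± 0.12 (95% interval 0.25 to 0.76; adjusted p = 0.0229). The groups did not overlap, but the call was lost when one of 4 arrays was left out: replicates 2, 3 and 4 of day 1 (adjusted p from 0.0672 to 0.0819) and replicate 4 of day 28 (0.191). Its passenger strand miR-29a*, with 1 of its 4 probes kept, was detected on 3 and 4 arrays and gave a difference of 0.47 ± 0.24 (adjusted p = 0.755).

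Within the 3 slides shared by both groups, the difference was positive for each of these 4 miR-29 miRNAs. It was 0.79, 0.35 and 0.47 for miR-29a, 0.73, 0.40 and 0.52 for miR-29b, 0.83, 0.40 and 0.62 for miR-29c, and 0.62, 0.33 and 0.50 for miR-29c* on slides 2, 3 and 4, which held 1, 1 and 2 arrays of day 28. With the slide as a fixed block the differences were 0.53, 0.54, 0.59 and 0.45 in the same order, each still past the threshold. With the percentile taken over all probes these 4 differences were 0.60 to 0.75, and without scaling 0.25 to 0.40, and none of the 4 passed in either setting or in a fit of the 8 arrays alone. miR-29b and miR-29c passed with each of the 8 arrays left out in turn. miR-29b did not pass with quantile normalization (0.36; adjusted p = 0.0579) or in the series value table (0.53; adjusted p = 0.122). miR-29c* did not pass in those or under normexp, nor miR-29a in the series value table or with no filter on dim probes; in a fit of the vehicle arrays alone, neither of these passed. Because the 3 guide strands differ by few bases, their values are not independent measurements. Markers of fibroblasts, the cells in which the miR-29 family is abundant, are given below, and their part in the result was not tested. In bulk heart sections, a change in the number of cells of a type and a change in RNA per cell cannot be told apart.

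miR-31 was the 1 call outside these groups and the weakest. It was measured at 5.06, 5.15, 4.81 and 4.79 on day 1 and at 5.40, 5.28, 5.34 and 5.59 on day 28. The groups did not overlap, and the difference was 0.45 ± 0.12 (95% interval 0.21 to 0.69; adjusted p = 0.0373), a 1.37-fold rise. One of its 2 probes was detected on 1 array of day 1 and on 4 of day 28. The call was lost when any of 5 of the 8 arrays was left out, with adjusted p up to 0.238. It was lost in 17 of 25 alternatives in all, among them quantile normalization (0.60; adjusted p = 0.419), normexp (0.24; 0.902), the summed gene signal (0.46; 0.162) and the series value table (0.24; 0.396), and its 3 within-slide differences ranged from 0.15 to 0.81.

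**Figure D2:**
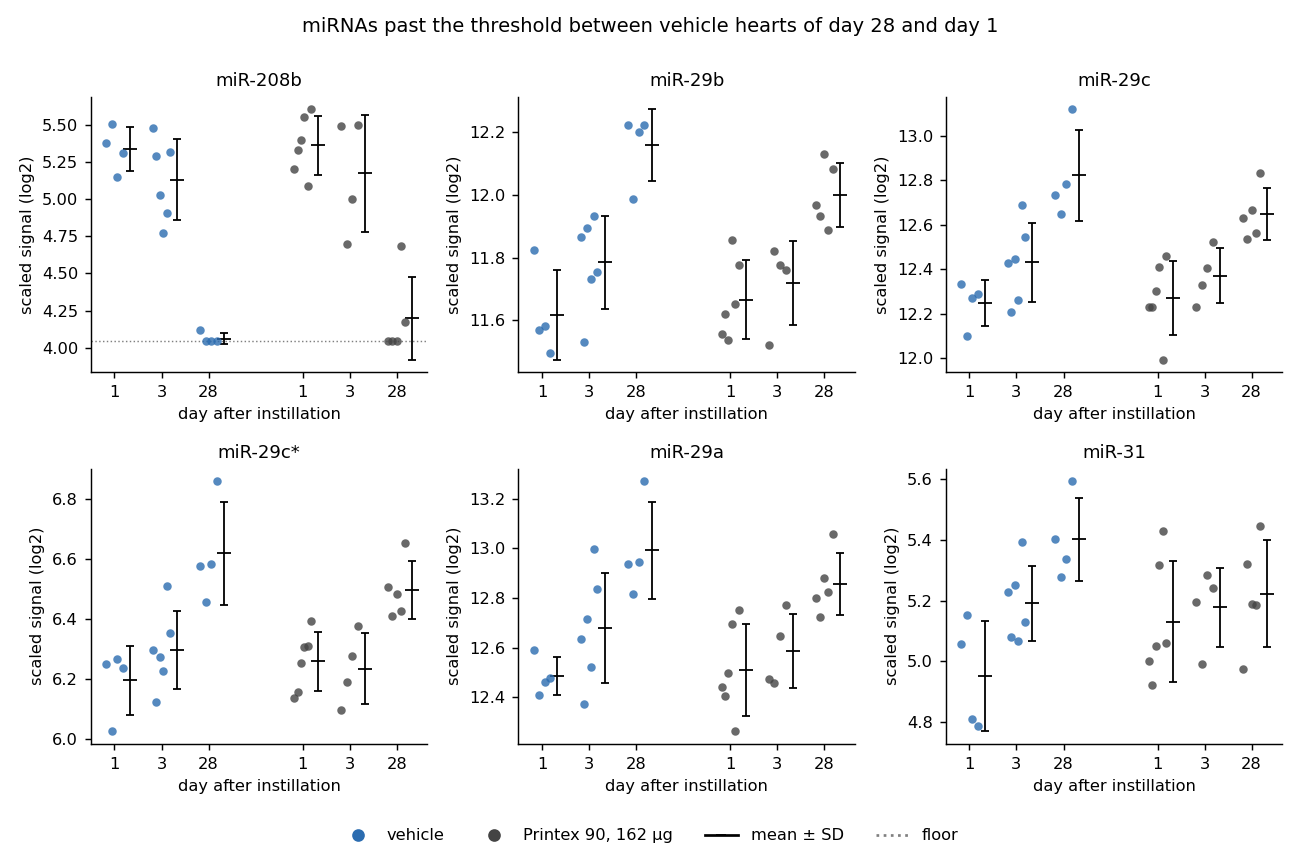
Scaled signal (log2) of the 6 miRNAs past the threshold on every array of the 6 groups, by day after instillation; points are arrays, black marks mean ± SD, and the dotted line in the miR-208b panel is the floor. In vehicle hearts (blue) the points of day 28 do not overlap those of day 1 in any of the 6 panels, and miR-208b on day 28 lies at or just above the floor.

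The vehicle hearts of day 3 lay between day 1 and day 28 by mean for all 6 miRNAs. For the miR-29 guide strands, day 3 was 0.17 to 0.19 above day 1, with an adjusted p of 0.439 for each. Between day 3 and day 1 no miRNA of 306 passed the threshold (0%), with 18 at an unadjusted p under 0.05 (5.88%). Between day 28 and day 3, 2 passed (0.654%; 22 at an unadjusted p under 0.05, 7.19%), miR-208b and miR-29b, with miR-29b higher by 0.37 ± 0.09 (adjusted p = 0.0406). These comparisons share arrays with that of day 28 and day 1 and are given as values only.

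The Printex 90 hearts gave a comparison of day 28 with day 1 that shares no array with the vehicle one. Both comparisons come from the same fit and share its spread and the scaling, so their p-values are not independent. In Printex 90 hearts, 4 of 306 miRNAs passed (1.31%), with 20 at an unadjusted p under 0.05 (6.54%). Of these 4, 3 had also passed in vehicle hearts: miR-208b, miR-29b and miR-29c. miR-208b was detected on 5 of 6 arrays of day 1 and on 0 of 5 of day 28, and was at least 1.69-fold lower in the main setting. miR-29b was higher by 0.33 ± 0.08 (adjusted p = 0.0458) and miR-29c by 0.38 ± 0.10 (adjusted p = 0.0498), while miR-29a gave 0.35 ± 0.11 (adjusted p = 0.151) and miR-29c* 0.24 ± 0.08 (adjusted p = 0.257). The 6 miRNAs, chosen by their p in vehicle hearts, had the same sign in both kinds of mice, but over all miRNAs the day differences did not run together. Across the 306 miRNAs, which share arrays and scaling and are not independent, Pearson's r between the vehicle and the Printex 90 difference was -0.24, and across the 211 detected on all arrays it was -0.29.

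miR-31 differed by 0.09 ± 0.10 in Printex 90 hearts (adjusted p = 0.657) against 0.45 in vehicle hearts. The difference between these differences was 0.36 (95% interval 0.04 to 0.67), with an unadjusted p of 0.0288 in the limma fit but an adjusted p of 0.484, and so failed the correction. Over all 306 miRNAs, no difference between vehicle and Printex 90 hearts in the change from day 1 to day 28 passed (0%), and 3 had an unadjusted p under 0.05 (0.98%). For miR-29b that difference was 0.21 (-0.05 to 0.47) and for miR-208b -0.11 (-0.58 to 0.36), so the data do not show that the day difference differed with Printex 90, and the intervals leave room for either to be larger in 1 kind of mouse.

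**Figure D3:**
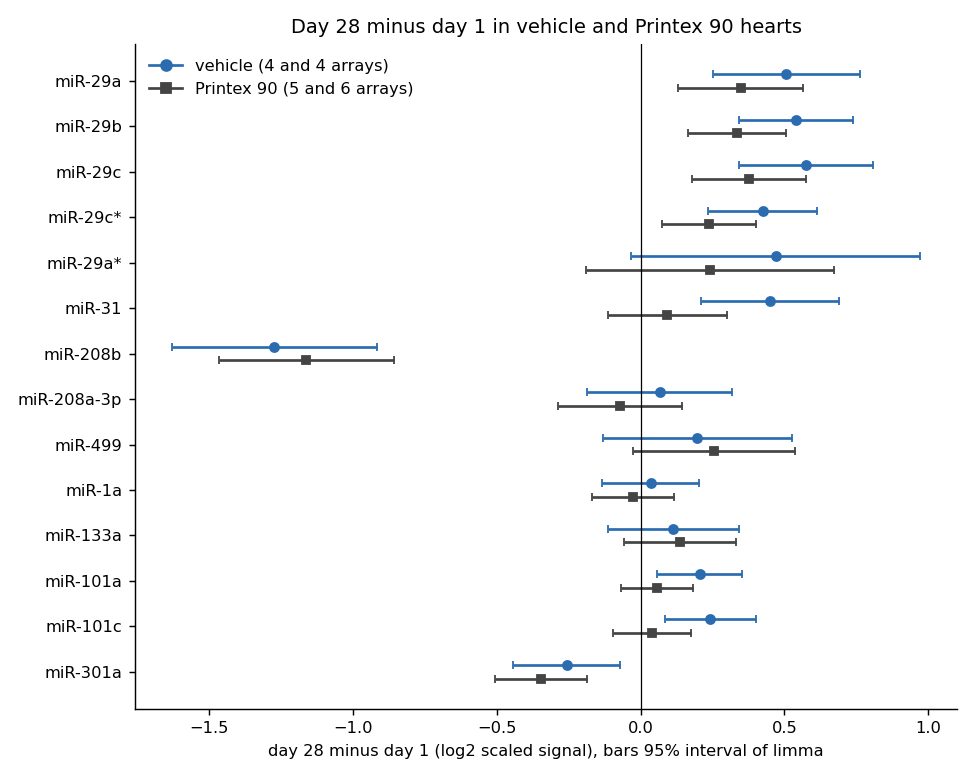
Day 28 minus day 1 (log2 scaled signal) with the 95% interval of limma for 14 miRNAs in vehicle hearts (circles, 4 and 4 arrays) and Printex 90 hearts (squares, 5 arrays of day 28 and 6 of day 1). The intervals of miR-208b lie below 0 and those of the 4 called miR-29 miRNAs above 0 in both kinds of mice.

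miR-301a, which had the smallest p after miR-208b among the miRNAs lower by value, was 6.69, 6.69, 6.67 and 6.70 on day 1 and 6.35, 6.48, 6.37 and 6.52 on day 28, without overlap. Its difference of -0.26 ± 0.09 did not pass (adjusted p = 0.294), and in Printex 90 hearts it was -0.35 ± 0.08 and passed (adjusted p = 0.0215). Nor did miR-101a (0.21 ± 0.07; adjusted p = 0.294) or miR-101c (0.24 ± 0.08; adjusted p = 0.177) pass. These are not independent of each other, since the whole of miR-101c is found in bases 2 to 20 of miR-101a. Including the 6 calls, the groups did not overlap for 9 miRNAs higher (2.94%) and 7 lower (2.29%) on day 28. The other higher ones were miR-320, miR-26b, miR-219-5p and miR-499, and the other lower ones miR-301a, miR-5127, miR-181c, miR-329, miR-3473d and miR-674*, none of which passed. Of these, miR-5127, miR-329 and miR-3473d were dim on day 28. Their kept probes were detected on 4 of 4 arrays of day 1 and on 1, 2 and 3 of day 28.

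Other groups of miRNAs, taken from lists of families, clusters and cell type markers, had no member past the threshold. In the fibroblast list, 4 of 5 were higher by value with a median of 0.14, miR-199a-3p at 0.14 ± 0.19 and miR-21 at -0.02 ± 0.12. On the scale of the summed level, the list ran from 11.58 to 11.71 on day 1 and from 11.52 to 12.07 on day 28, with replicate 4 of day 28 the highest. Replicate 4 was also the highest array for miR-29a, miR-29c, miR-29c* and miR-31. It was the 1 array of day 28 on slide 2. In the miR-30 family, which is abundant in heart muscle, 9 of 11 were higher with a median of 0.12, but without scaling the median was -0.05. The median over all miRNAs was itself -0.21 without scaling and 0.13 with all probes in the percentile, so list medians are read against it.

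Let-7 guide strands, which are among the most abundant miRNAs, gave 7 of 9 higher with a median of 0.06. In the endothelial list all 3 were higher, with miR-126-3p, the miRNA of vessel endothelium, at 0.06 ± 0.09. In the leukocyte list 2 were higher and 2 lower, with miR-142-3p at -0.14 ± 0.20 and the neutrophil miRNA miR-223 at 0.08 ± 0.11. The 4 inflammation-induced miRNAs ranged from -0.02 to 0.06, with miR-155 at 0.03 ± 0.10 and miR-146a at 0.03 ± 0.18. In the red blood cell list, 3 of 4 were lower with a median of -0.25, miR-451 at -0.23 ± 0.26 and miR-144 at -0.33 ± 0.26. Smooth muscle miR-143 and miR-145 were at -0.06 and -0.08. In the cardiac stress list miR-22 was at 0.17 ± 0.07 and miR-320 at 0.23 ± 0.10, both with an adjusted p of 0.665.

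In the Sfmbt2 intron cluster, taken by name, 42 of 42 miRNAs that passed the filter (of 62 on the array) were lower by value, with a median of -0.35, and no member passed. The summed level ran from 12.29 to 13.04 on day 1 and from 12.06 to 12.93 on day 28, so the arrays overlapped, with replicates 3 and 4 of day 28 and replicate 4 of day 1 the lowest. Many members share sequence, so their common sign is not 42 independent observations. Within slides 2, 3 and 4 the list's median was -0.23, -0.26 and -0.48, and over the other scalings and background corrections it ran from -0.52 to -0.13. In Printex 90 hearts the same list had a median of 0.47, with the opposite sign. The Dlk1-Dio3 cluster, an imprinted locus expressed in fetal tissue, had 8 of 99 names past the filter, 7 of them lower, with a median of -0.20 that was 0.04 under normexp. Of the imprinted growth loci outside it, 4 of 10 names passed the filter and all 4 were lower, with miR-335-5p at -0.36 ± 0.20. Their median was -0.32 in the main setting, -0.03 under normexp and 0.07 in Printex 90 hearts.

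**Figure D4:**
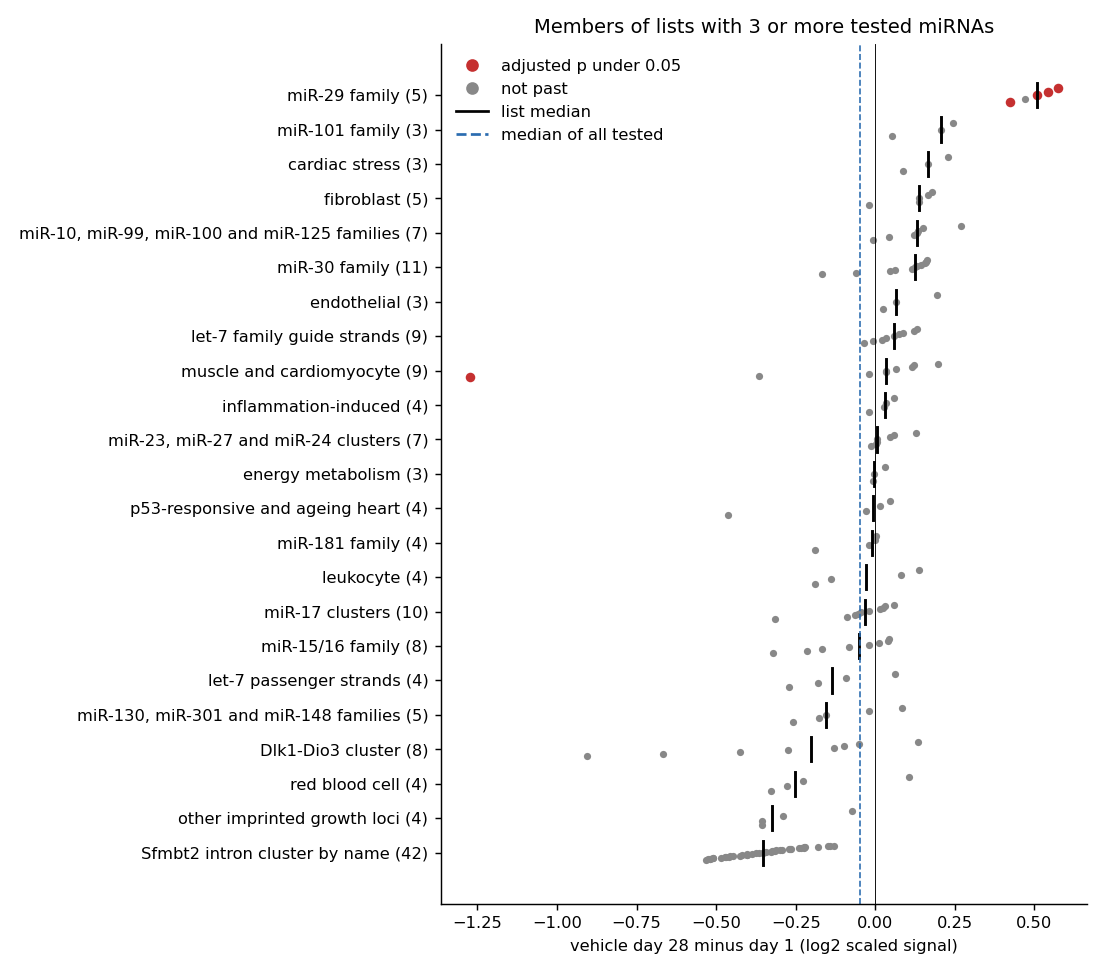
Vehicle day 28 minus day 1 (log2 scaled signal) for the members of each list with 3 or more tested miRNAs (number tested in parentheses); red points passed an adjusted p of 0.05, black bars are list medians and the dashed line is the median over all 306. The red points are the 4 miR-29 miRNAs and miR-208b, and the Sfmbt2 list has the lowest median.

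The precision of the comparison was highest among the brightest miRNAs. In the 102 brightest the median standard error was 0.12. In the 102 of middle level and the 102 dimmest it was 0.23 each. Of 306 miRNAs, 230 had a 95% interval within 2-fold in either direction and 161 within 1.5-fold. For the others the interval reached a change of that size or lay beyond it. The number of arrays, 4 per group, limits the precision. The limma p-values set each difference against a spread between arrays that was pooled over all 6 groups. With 1 mouse per array, the spread between mice and that between arrays cannot be told apart.

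**Figure D5:**
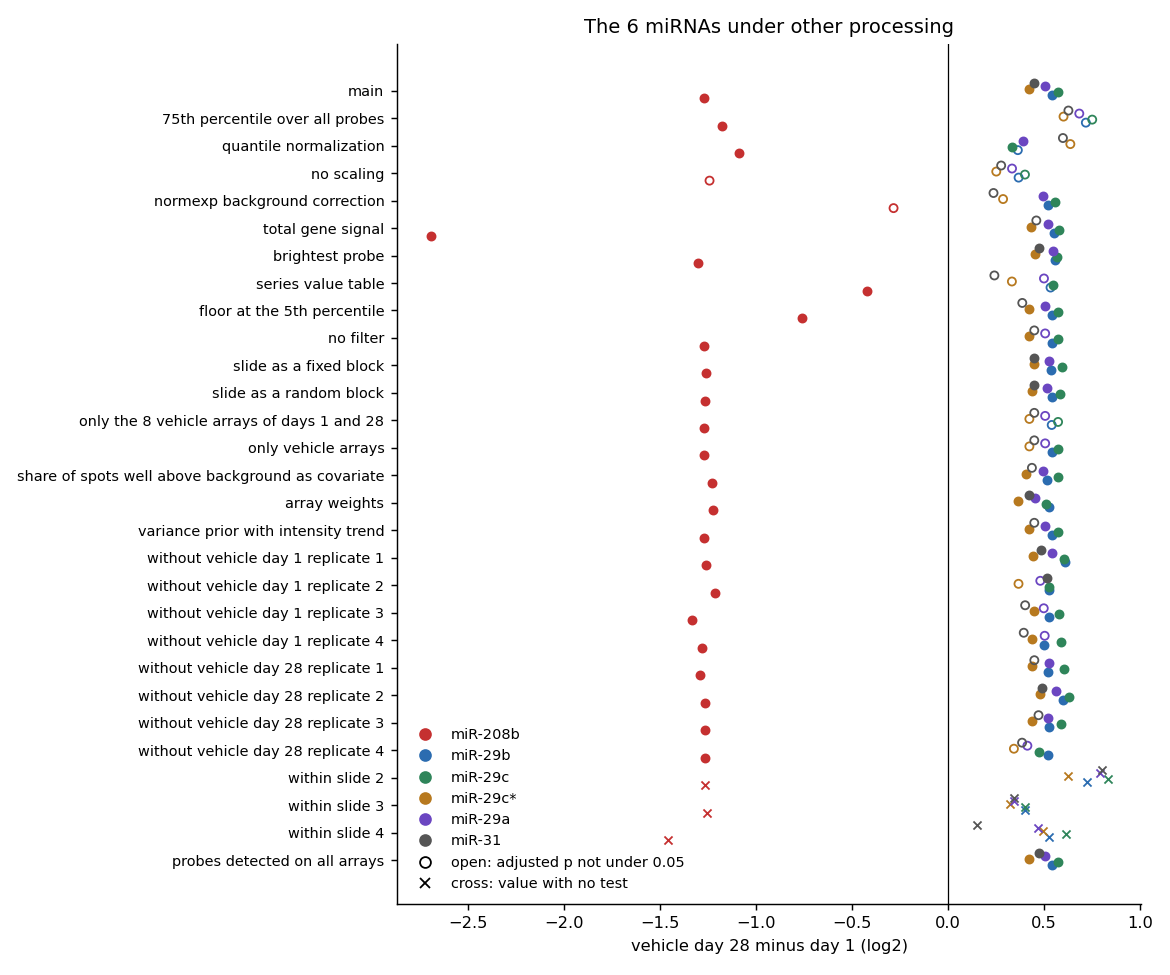
Vehicle day 28 minus day 1 (log2) of the 6 miRNAs under the main setting and other processing; filled points passed an adjusted p of 0.05, open ones did not, and crosses are values within 1 slide with no test. All points keep the sign of the main setting, and the size of miR-208b moves most, from -2.69 to -0.28.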

How the data were processed

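The authors' deposited scanner files hold background-subtracted, detrended signal intensity per spot, quantified with Feature Extraction 10.7.3.1 per the file headers. One of 30 files has no signal, so 29 arrays entered the main fit. The fit of the series value table held all 30 samples, and those of smaller sample sets and left-out arrays held fewer than 29. Signal was averaged over non-outlier spots per probe and divided by the array's 75th percentile, taken over the 418 probes that every array detected. It was then multiplied by the geometric mean of these percentiles over the arrays, floored at 16.5 and taken to log2. Probes seen on 4 or more arrays of any group were kept (621 probes) and averaged into 306 miRNAs. limma 3.58.1 in R 4.3.3 fitted 6 group means; p-values were adjusted by Benjamini-Hochberg over 306. The named miRNAs are those past the threshold, the 10 with smallest p in each direction, up to 3 per list, a fixed set of cardiac miRNAs, and any with non-overlapping groups; miR-29a* was added after its values were seen.

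The members and lists were chosen with earlier results of these data known. The deposited series value table gives log2 values; it served as a check. Over the 8 arrays its column medians lay between 5.79 and 5.82 and it ranked miRNAs like the median pixel signal (Spearman at least 0.994); how it was scaled and whether it was centred are not given in the sources used here. Slides equal scan times; slide 1 holds 1 array of day 1 and none of day 28. Replicate numbers follow accession order and pair nothing. The fit was tested on simulated data. Alternatives were other scalings, background correction (normexp on the median signal), floors, filters, blocks, sample sets and left-out arrays. Only 20.3% of kept names match RefSeq's unchanged, so no check of base composition was made; the sequences printed were matched through arm names set by hand.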

Additional observations from a re-analysis of the deposited data

Results flagged for a closer look

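Over the 92 named miRNAs and 3 array measures, in 18 of 190 groups of 4 arrays 1 array stood apart from the other 3 by a gap above Dixon's critical value; chance alone gives about 1 in 20. Among the miRNAs that passed, miR-208b had 1 array of day 28 (4.12) above 3 set to the floor, so that this gap comes from the floor, miR-29b had replicate 2 of day 28 lowest at 11.99, and miR-29c* had replicate 2 of day 1 lowest at 6.03. Leaving out that array, miR-29b differed by 0.60 (adjusted p = 0.00076) and miR-29c* by 0.37 (adjusted p = 0.0536).

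Replicate 4 of day 1 was lowest for let-7b* (5.74), miR-122 (4.47), miR-483* (5.24), miR-485* (6.53) and miR-669d* (7.11). Replicate 1 of day 1 was lowest for miR-221 (6.81) and highest for miR-24 (12.21) and miR-27a (11.37). Replicate 3 of day 1 was highest for miR-299* (5.37) and miR-378 (10.02) and lowest for miR-301a (6.67). On day 28, replicate 1 was lowest for miR-145 (6.34) and miR-146a (6.41), replicate 3 for miR-22 (13.44) and replicate 4 for miR-1895 (5.52).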

How the results depend on the processing

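No called miRNA changed sign in any of 25 alternatives, which ended 46 calls in all. The 5 higher calls became 0 with all probes in the percentile, 2 with quantile normalization, 0 with no scaling, 3 with normexp, 1 in the series value table, 0 with only the 8 arrays, 2 with only vehicle arrays and 9 with array weights, and 2 to 5 with 1 array left out; the causes were not tested. The 1 lower call became 0 with no scaling, normexp and probes detected on all arrays (where miR-208b is not tested), 2 with only the 8 arrays and 2 with array weights, and stayed 1 with 1 array left out. Array weights added miR-101a, miR-101c, miR-1895, miR-22 and miR-301a, and the 8 arrays alone added miR-329. The count of differences between vehicle and Printex 90 hearts was 0 in each alternative in which it was counted. These were all probes in the percentile, the slide as a fixed or a random block, and the share of spots well above background as covariate. The count is not given for the others. Of 2132 alternative fits of the 86 named miRNAs that did not pass, 6 passed and 157 had the other sign. No paired analysis was possible because replicate numbers come from accession order. On day 28 miR-208b was not well above background, which leaves only a bound.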

Other observations

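Probes for 57 viral miRNAs gave 10 names with a detected signal in 1 or more of these 8 hearts and 7 in all 8. Of 1079 mouse miRNAs, 354 were detected in 1 or more of the 8 and 262 in all 8. Whether the viral probes were bound by the miRNAs they name was not tested. The 2 strands of a hairpin could be compared in 26 pairs, and 19 had the same sign. miR-744* had a difference of -1.13 ± 0.58 (adjusted p = 0.755), with arrays from 7.40 to 8.02 on day 1 and from 5.55 to 7.58 on day 28.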
